A study of Rattus norvegicus with 15 samples.

Results

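Irf7, Irf1, Irf9, Stat2, Usp18, Isg15, Mx1, Rsad2 and Ifit3 are genes that interferon switches on or that carry and regulate its signal. They were chosen by gene symbol in the platform annotation, and these 9 genes are described here out of 15037 distinct gene symbols on the array. All 9 were measured, each by 1 probe set. The hearts came from male Sprague-Dawley rats of 8 to 10 weeks. Sham controls had sham surgery, and the other rats had severe acute pancreatitis (SAP), induced by infusing 5% sodium taurocholate backwards into the bile and pancreatic ducts, with hearts taken 12 h or 24 h later. Each of the 3 groups had 5 arrays of total heart RNA. The labels do not say how long after surgery the sham hearts were taken, or at what time of day any heart was taken. The labels say 5 hearts per group but tie no array to a named animal, so the p-values measure the spread between these arrays.

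Type I interferons bind a receptor on nearly all cells, whose kinases phosphorylate STAT2. STAT2 and IRF9 are parts of the complex ISGF3, which binds the interferon-stimulated response element (ISRE) in the promoters of antiviral genes. Interferon gamma acts on another element, the gamma-activated site (GAS), and induces IRF1. In the heart, this programme is known mainly as a defence against viruses and as a response to nucleic acids released by injured cells.

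The promoters of 4 members are shown because both elements that connect these genes to interferon can be seen in them. RefSeq promoter windows of 300 bases (GRCr8) were available for 7 of the 9 members, all but Usp18 and Isg15. The 250 bases before the start used in the RefSeq promoter table are printed 5′ to 3′ on the gene's strand, with capitals marking a motif found by a search of letters. The ISRE core was searched as GAAANNGAAA on both strands and GAS as TTCNNNGAA, which reads the same on both strands. The windows are chr1:205800024-205800273 on the minus strand for Irf7, chr1:241527076-241527325 on the plus strand for Ifit3, chr6:48788121-48788370 on the minus strand for Rsad2 and chr10:38417685-38417934 on the plus strand for Irf1.
Irf7: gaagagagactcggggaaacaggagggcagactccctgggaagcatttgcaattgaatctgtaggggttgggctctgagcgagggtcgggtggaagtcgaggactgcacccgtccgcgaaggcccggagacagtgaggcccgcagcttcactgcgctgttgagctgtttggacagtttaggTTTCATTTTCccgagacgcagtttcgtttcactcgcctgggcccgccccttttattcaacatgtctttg
Ifit3: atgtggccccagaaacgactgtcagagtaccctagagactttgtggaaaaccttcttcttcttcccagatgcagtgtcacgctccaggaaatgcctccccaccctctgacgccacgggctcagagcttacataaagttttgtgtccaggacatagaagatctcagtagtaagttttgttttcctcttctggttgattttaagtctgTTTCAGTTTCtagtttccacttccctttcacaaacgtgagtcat
Rsad2: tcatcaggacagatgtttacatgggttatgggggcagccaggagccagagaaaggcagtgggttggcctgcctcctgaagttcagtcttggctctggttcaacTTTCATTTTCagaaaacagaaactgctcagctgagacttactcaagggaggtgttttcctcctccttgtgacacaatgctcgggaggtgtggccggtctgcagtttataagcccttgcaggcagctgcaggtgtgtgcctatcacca
Irf1: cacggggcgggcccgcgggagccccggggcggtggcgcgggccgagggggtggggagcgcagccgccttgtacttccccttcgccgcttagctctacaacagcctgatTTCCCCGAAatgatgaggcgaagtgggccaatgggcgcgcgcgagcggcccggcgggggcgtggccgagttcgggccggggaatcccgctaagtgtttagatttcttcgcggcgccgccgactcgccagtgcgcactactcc

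The ISRE core lay between bases -69 and -60 from the start in Irf7, between -44 and -35 in Ifit3 and between -147 and -138 in Rsad2, each time read on the opposite strand. GAS lay between -142 and -134 in Irf1 and between -99 and -91 in Irf9. No member's window held both motifs, and the windows of Stat2 and Mx1 held neither of these letter patterns. The RefSeq gene records of Irf7 and Rsad2 extend further upstream than the starts used here. All 250 printed bases of Irf7 and the 125 nearest the start of Rsad2 lie within those records, and the printed bases of Ifit3 and Irf1 lie outside theirs. Of all 33469 rat promoter windows of this length, 3.92% held the ISRE core and 8.87% held GAS. Among the 31 windows available for type I interferon effector genes, a list that holds 6 of the members, 67.7% held the ISRE core. These matches describe letters in a window and not bound sites.

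In bulk tissue, fewer cells of a type and less RNA per cell cannot be told apart, and this holds for every difference below. All levels are deposited log2 values, differences are between mean log2 levels, given ± limma's standard error, and folds hold if the deposited values are plain log2. Adjusted p-values are limma's, adjusted over all 23188 probe sets by the Benjamini-Hochberg method, and a probe set was called at an adjusted p under 0.05. As a guide to background, genes of the pancreatic acinar cell, which the heart should lack, had a median level of 4.75. Cardiomyocyte markers averaged between 18.03 and 18.45 per array, so every array held heart muscle. In 4 arrays, sham replicates 2 and 3 and SAP 12 h replicates 3 and 4, the atrial genes Myl4 and Sln both exceeded 12, and the members' results are therefore also given without these arrays. The atrial marker mean lay between 8.20 and 15.08 in sham hearts and between 6.79 and 7.66 at 24 h, without overlap. Leaving out the 4 arrays does not remove that difference from the 24 h comparison.

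At 12 h, 2 members had fallen, the transcription factor Irf7 and the deubiquitinating enzyme Usp18. Irf7 was 4.08-fold and Usp18 3.08-fold lower than in sham hearts. The other 7 members did not pass the test. Of the 9 differences 7 lay below 0, with a median of -0.81, whereas 47.9% of all probe sets lay below 0 with a median of 0.01. The members' median was -0.62 without sham replicate 2 and -0.62 without the 4 atrium-rich arrays, with 7 of 9 below 0 each time. The 2 calls out of 9 stand beside 2.57% of all probe sets called lower at 12 h and 2.35% called higher. At an unadjusted p under 0.05, 6 of the 9 were lower, beside 7.73% of all probe sets.

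IRF7 is the transcription factor that amplifies the production of type I interferons, and its own gene is induced by ISGF3. In the sham hearts Irf7 stood at 8.56, 9.97, 6.97, 8.06 and 9.01 in replicates 1 to 5. At 12 h the levels were 6.05, 5.94, 6.04, 6.94 and 7.45. All but 1 of the sham hearts were above every 12 h heart, and the exception, sham replicate 3, was above 4 of the 5. The mean fell from 8.51 ± 1.11 (SD, n = 5) to 6.48 ± 0.68, a difference of -2.03 ± 0.44 with an adjusted p of 0.00977. Without the 4 atrium-rich arrays the difference was -2.06 ± 0.43 (adjusted p = 0.0183).

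USP18 removes ISG15 from proteins and also blocks the type I interferon receptor, which makes it a brake on the pathway. In the sham hearts Usp18 stood at 9.48, 10.94, 8.52, 9.39 and 9.73. At 12 h it stood at 8.10, 7.88, 7.49, 8.08 and 8.39. No 12 h heart reached the lowest sham heart, and Usp18 was the 1 member of 9 without overlap at 12 h, beside 2.44% of all probe sets that were lower without overlap. The mean fell from 9.61 ± 0.87 to 7.99 ± 0.33 (SD, n = 5), a difference of -1.62 ± 0.35 with an adjusted p of 0.00884. Without the 4 atrium-rich arrays the difference was -1.41 ± 0.32 (adjusted p = 0.0301). Leaving out any 1 array in turn kept both Irf7 and Usp18 called at 12 h.

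**Figure D1:**
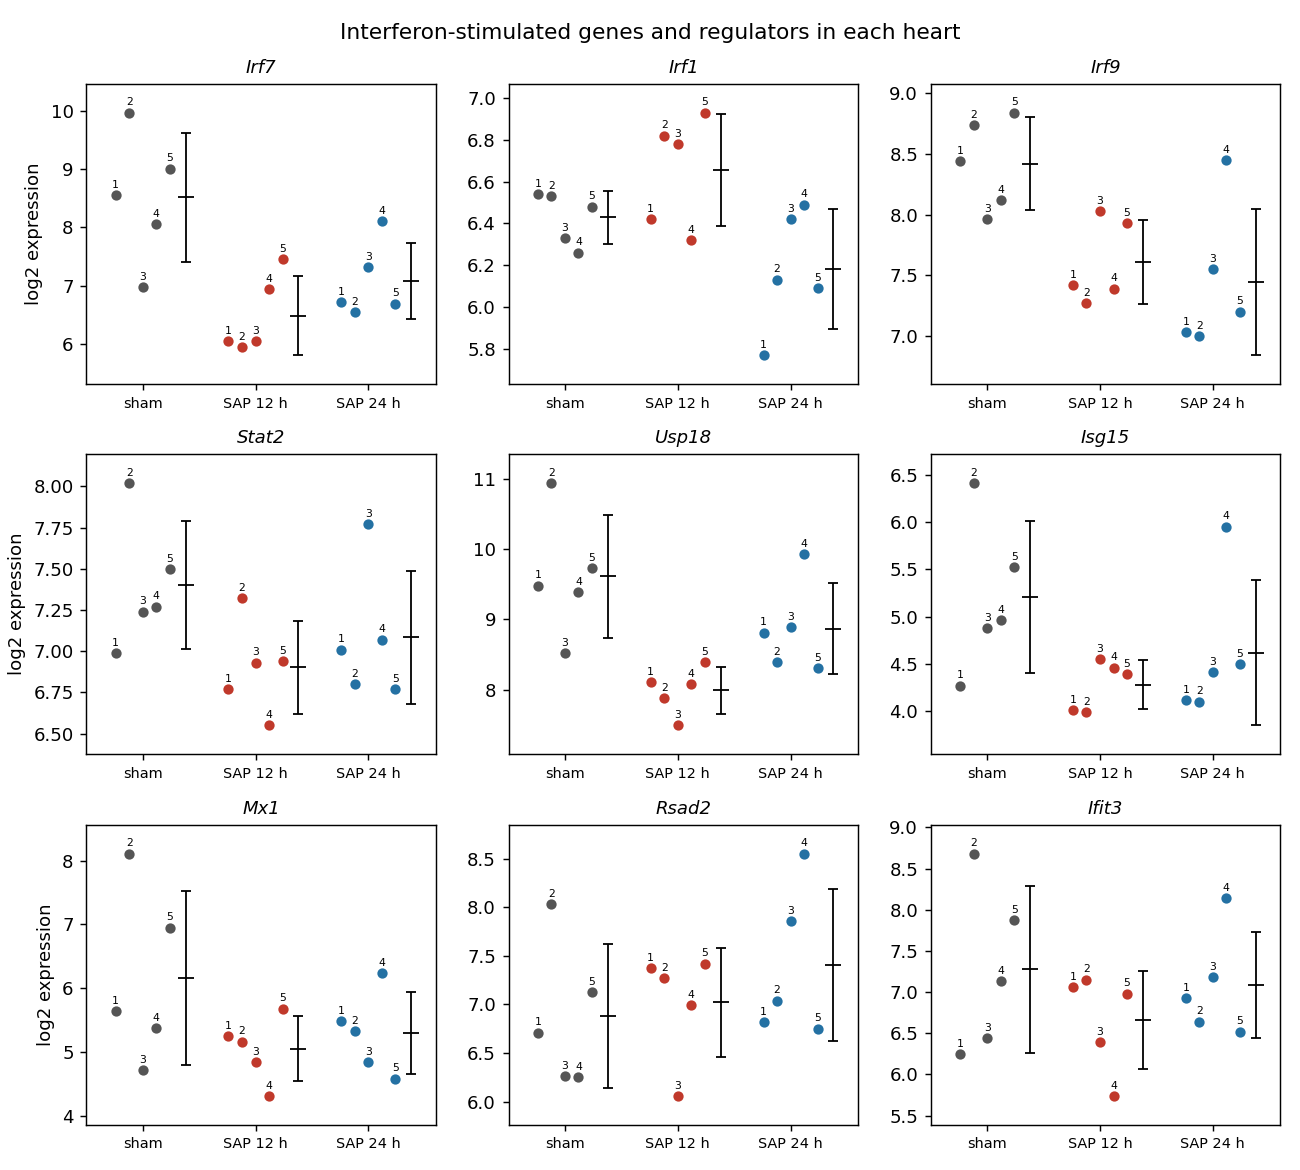
Deposited log2 expression of the 9 genes in every heart, 1 panel per gene, with points numbered by replicate for the 5 arrays of each group (sham, SAP 12 h, SAP 24 h) and black bars for mean and SD; each panel has its own vertical scale. For Usp18 all 12 h points, 7.49 to 8.39, lie below all sham points, 8.52 to 10.94, while for Mx1 the sham points alone span 4.71 to 8.11.

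Stat2 and Irf9 encode parts of ISGF3. Irf9, which gives the complex its DNA binding, stood at 8.44, 8.74, 7.96, 8.12 and 8.84 in sham hearts and at 7.42, 7.27, 8.03, 7.39 and 7.93 at 12 h. The groups overlapped through the 12 h replicate at 8.03, which was above the sham heart at 7.96. The difference of -0.81 ± 0.25 did not pass the test (adjusted p = 0.0737). It passed when SAP 24 h replicate 4, which is no array of this contrast but widens the shared estimate of spread, was left out (adjusted p = 0.0207). The difference was -0.93 ± 0.33 without the 4 atrium-rich arrays (adjusted p = 0.184). Stat2 ranged from 6.99 to 8.02 in sham hearts and from 6.55 to 7.32 at 12 h, a difference of -0.50 ± 0.21 (adjusted p = 0.213). The ranges of Stat2 overlapped, and its 95% interval ran from -0.93 to -0.07. The difference of Stat2 shrank to -0.24 ± 0.24 without the 4 atrium-rich arrays (adjusted p = 0.768).

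Irf1, which was first described as an activator of the interferon beta gene and is a main mediator of interferon gamma responses, had a difference above 0 at 12 h. It ranged from 6.26 to 6.54 in sham hearts and from 6.32 to 6.93 at 12 h. The difference of 0.23 ± 0.15 did not pass the test (adjusted p = 0.524), with a 95% interval from -0.09 to 0.54. It was 0.30 ± 0.20 without the 4 atrium-rich arrays (adjusted p = 0.597).

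The 4 antiviral effectors among the members did not pass the test at 12 h. Isg15, the ubiquitin-like protein that USP18 removes, stood at 4.27, 6.41, 4.88, 4.96 and 5.52 in sham hearts and at 4.01, 3.99, 4.55, 4.46 and 4.39 at 12 h. All 12 h values of Isg15 lay below the acinar guide of 4.75, so its difference of -0.93 ± 0.35 (adjusted p = 0.167) rests on values near background. Mx1, a GTPase that restricts influenza and related viruses in rodents, stood at 5.64, 8.11, 4.71, 5.37 and 6.95 in sham hearts. At 12 h Mx1 stood at 5.25, 5.16, 4.84, 4.31 and 5.68, a difference of -1.11 ± 0.48 (adjusted p = 0.248). The 12 h values of Mx1 fell within the lower part of the sham range except for 1 below it.

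Ifit3, a member of a family of RNA-binding antiviral proteins, ranged from 6.25 to 8.68 in sham hearts and from 5.74 to 7.15 at 12 h, a difference of -0.61 ± 0.41 (adjusted p = 0.528). Rsad2 encodes viperin, which makes a nucleotide that halts viral RNA synthesis. Its levels ran from 6.25 to 8.03 in sham hearts and from 6.06 to 7.42 at 12 h. Its difference, 0.15 ± 0.37 (adjusted p = 0.914), had a 95% interval from -0.63 to 0.92, so neither a fall nor a rise of Rsad2 was detectable with these arrays. Without sham replicate 2 the differences at 12 h shrank to -0.62 for Mx1, -0.63 for Isg15 and -0.26 for Ifit3, none of which passed the test (adjusted p = 0.513, 0.371 and 0.834). Rsad2 then differed by 0.43 ± 0.35 (adjusted p = 0.643). The difference of Ifit3 was -0.02 ± 0.39 without the 4 atrium-rich arrays (adjusted p = 0.992). Mx1 then differed by -0.62 ± 0.41 (adjusted p = 0.587) and Isg15 by -0.79 ± 0.41 (adjusted p = 0.445). Rsad2 moved further above 0, to 0.66 ± 0.38 (adjusted p = 0.523).

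**Figure D2:**
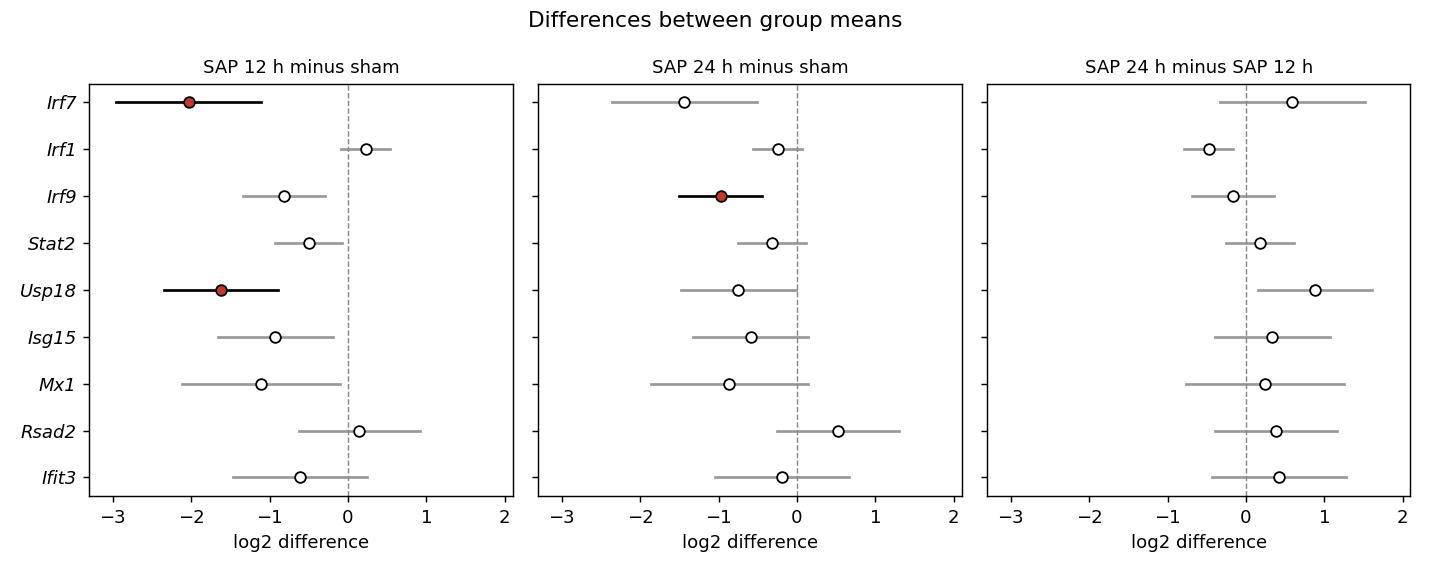
Log2 differences between group means for the 9 genes in the 3 comparisons, with points for limma's estimates and lines for their 95% intervals, and filled points for those called. At 12 h the estimates for Irf7 (-2.03) and Usp18 (-1.62) lie furthest below 0, and Irf1 (0.23) and Rsad2 (0.15) lie above it.

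At 24 h, 1 member had fallen, Irf9, which was 1.96-fold lower than in sham hearts. This call is marginal, and it is lost when any of 7 single arrays is left out. The share of all probe sets called lower at 24 h was 2.14%, with 1.23% called higher. Of the 9 differences 8 lay below 0, with a median of -0.59, beside 45.3% of all probe sets and a median of 0.02. That median depended on single arrays. Without sham replicate 2 it was -0.29 with 7 of 9 below 0, since Ifit3 then stood at 0.16. Without SAP 24 h replicate 4 it was -0.93, and it was -0.30 without the 4 atrium-rich arrays or with the atrial marker mean as a covariate, with 8 of 9 below 0 in each. At an unadjusted p under 0.05, 3 of the 9 were lower, beside 8.65% of all probe sets, and 0 of the 9 were lower without overlap, beside 3.37%. Both SAP comparisons share the sham arrays, so their directions are not separate evidence.

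Irf9 stood at 7.03, 7.00, 7.55, 8.45 and 7.20 at 24 h. Of these hearts 4 were below every sham heart, and replicate 4 at 8.45 was within the sham range. The difference was -0.97 ± 0.25 (adjusted p = 0.0392). It did not pass without sham replicate 1, 2 or 5 (adjusted p = 0.0728, 0.0847 and 0.104) or without SAP 24 h replicate 1, 2, 3 or 5 (0.0843, 0.109, 0.0617 and 0.0982). Without SAP 24 h replicate 4, the high heart, it was -1.23 ± 0.20 (adjusted p = 0.0038). Without the 4 atrium-rich arrays it was -1.02 ± 0.29 (adjusted p = 0.0936), and with the number of the replicate as a block the adjusted p was 0.0660. With the atrial marker mean as a covariate it was -0.88 ± 0.28, with the highest adjusted p of the 25 alternatives, 0.131.

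Irf7 at 24 h stood at 6.72, 6.54, 7.32, 8.11 and 6.69. Of these hearts 4 were within the 12 h range, and replicate 4 at 8.11 was above 2 of the sham hearts. Its difference from sham of -1.44 ± 0.44 did not pass the test (adjusted p = 0.0818), and it passed without sham replicate 3, the lowest sham heart (adjusted p = 0.0224). It was -1.47 ± 0.38 without the 4 atrium-rich arrays (adjusted p = 0.0660). Usp18 stood at 8.81, 8.39, 8.89, 9.93 and 8.31 at 24 h. Its difference of -0.75 ± 0.35 did not pass (adjusted p = 0.290) and was -0.41 ± 0.29 without sham replicate 2 (adjusted p = 0.541), and 2 of the 24 h hearts were below the lowest sham heart.

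The remaining 6 members overlapped with sham hearts at 24 h and did not pass the test, with adjusted p-values between 0.397 and 0.874. Isg15 ranged from 4.10 to 5.95 and Mx1 from 4.58 to 6.24 at 24 h. Ifit3 ranged from 6.52 to 8.14, Stat2 from 6.77 to 7.77 and Irf1 from 5.77 to 6.49. Rsad2 was the 1 member above 0 at 24 h, with levels of 6.82, 7.04, 7.86, 8.55 and 6.75 and a difference of 0.53 ± 0.37 (adjusted p = 0.526). Without the 4 atrium-rich arrays Ifit3 differed by 0.00 ± 0.35 from sham at 24 h, Stat2 by -0.17 ± 0.22, Isg15 by -0.30 ± 0.36 and Mx1 by -0.69 ± 0.36. Irf1 then differed by -0.25 ± 0.18 and Rsad2 by 0.71 ± 0.34, and the adjusted p-values of these 6 lay between 0.363 and 0.999.

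Between 12 h and 24 h, 0 of the 9 members were called by limma, beside 0.69% of all probe sets called in either direction. Of the 9 differences 2 lay below 0, beside 46.4% of all probe sets. Their median of 0.34 shrank to 0.10 without SAP 24 h replicate 4, to 0.19 without SAP 12 h replicate 3 or 4, and to 0.05 without the 4 atrium-rich arrays, when 3 lay below 0. At an unadjusted p under 0.05, 1 member was lower and 1 higher at 24 h, beside 7.35% and 5.84% of all probe sets. Irf1 was lower at 24 h by -0.47 ± 0.15 (unadjusted p = 0.00527, adjusted p = 0.158). Usp18 was higher at 24 h by 0.88 ± 0.35 (unadjusted p = 0.0210, adjusted p = 0.271). The 95% interval for Irf7, from -0.33 to 1.52, held both no recovery and a return of over 1 on the log2 scale.

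The sham hearts themselves differed widely in these genes. From the lowest to the highest sham heart, Mx1 differed 10.6-fold, Irf7 8.00-fold, Ifit3 5.39-fold, Usp18 5.35-fold, Isg15 4.41-fold and Rsad2 3.43-fold. Stat2 (2.04-fold), Irf9 (1.84-fold) and Irf1 (1.21-fold) differed less. The lowest sham values of Mx1, 4.71, and Isg15, 4.27, lay below the acinar guide, so their folds rest in part on values near background. The lowest sham values of the other members lay above that guide. The SD among sham hearts was at the 99.9th percentile of all probe sets for Mx1, the 99.8th for Irf7, the 99.7th for Ifit3, the 99.5th for Usp18, the 99.4th for Isg15 and the 99.3rd for Rsad2. It was at the 91.7th percentile for Stat2, the 91.0th for Irf9 and the 15.3rd for Irf1, so 8 of the 9 were above the 90th.

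1 heart was the highest for most of these genes. Sham replicate 2 was the highest sham heart for 7 of the 9 members, all but Irf1 and Irf9, whereas it was the highest for 20.7% of all probe sets. Sham replicate 3 was the lowest for 4 of the 9, beside 27.2% of all probe sets. Averaged over the 9 members, the sham hearts stood at 6.99, 8.38, 6.59, 6.98 and 7.67. Sham replicates 2 and 5 were thus high and sham replicate 3 low. Replicates 2 and 3, the highest and the lowest, are both among the atrium-rich arrays. In a check added after the data were seen, without sham replicate 2 the range among the other 4 sham hearts was 4.72-fold for Mx1, 4.11-fold for Irf7, 3.07-fold for Ifit3 and 2.31-fold for Usp18, and 7 of the 9 members stayed above the 90th percentile of SD. Without sham replicates 2 and 3, which leaves 3 hearts, Mx1 differed 2.99-fold and Ifit3 3.07-fold, Irf7 differed 1.93-fold and Usp18 1.27-fold, and 5 of the 9 were above that percentile.

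The SAP hearts at 12 h had member averages of 6.49, 6.53, 6.35, 6.31 and 6.90. At 24 h the averages were 6.52, 6.44, 6.92, 7.66 and 6.38. Of the sham hearts 4 averaged above the highest 12 h heart, and of the 24 h hearts 2 did. SAP 24 h replicate 4 was the highest heart of its group for 8 of the 9 members, all but Stat2, beside 16.8% of all probe sets. Its Isg15 level of 5.95 compares with 4.10 to 4.50 in the other 24 h hearts.

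**Figure D3:**
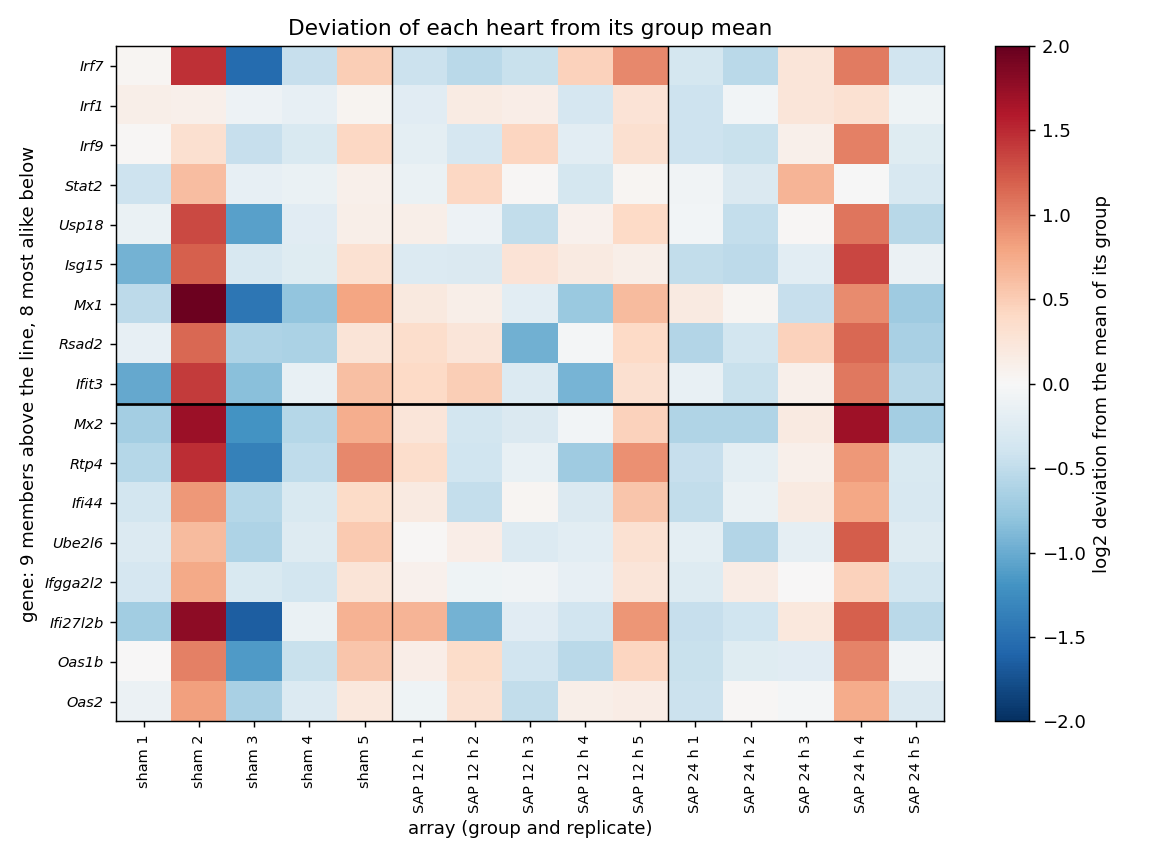
Deviation of each of the 15 hearts from the mean of its group, on the log2 scale, for the 9 members (above the line) and the 8 genes whose deviations were most like the members' mean (below it). Sham replicate 2 and SAP 24 h replicate 4 are high in nearly every row; averaged over the members, sham replicate 2 lies 1.06 above its group mean.

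The median SD of the members was 0.805 among sham hearts, 0.346 at 12 h and 0.645 at 24 h, whereas that of all probe sets was 0.210, 0.245 and 0.212. At 12 h the SD was below that of sham hearts for 8 of the 9 members, all but Irf1, and for 39.2% of all probe sets. At 24 h this held for 5 of the 9 and for 50.1% of all probe sets. All 12 h values of Isg15, 3.99 to 4.55, lay below the acinar guide to background. So did the lowest values of Mx1 at 12 h, 4.31, and at 24 h, 4.58. The 12 h values of the other members all lay above that guide. Whether nearness to background narrowed the spread of Isg15 and Mx1 was not tested. The test of a difference in spread, limma on each array's deviation from its group mean, called 0 members at 12 h and 0 at 24 h, beside 0.0604% and 0.00431% of all probe sets. In simulated data this test recovered only a minority even of large differences in spread, so these counts do not show that the groups were equally spread. At an unadjusted p under 0.05 in that limma test, 1 member, Mx1, was less spread at each time, beside 2.74% of all probe sets at 12 h and 3.49% at 24 h. The limma p-values of Mx1 were 0.00651 and 0.0147 (adjusted p = 0.254 and 0.597).

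**Figure D4:**
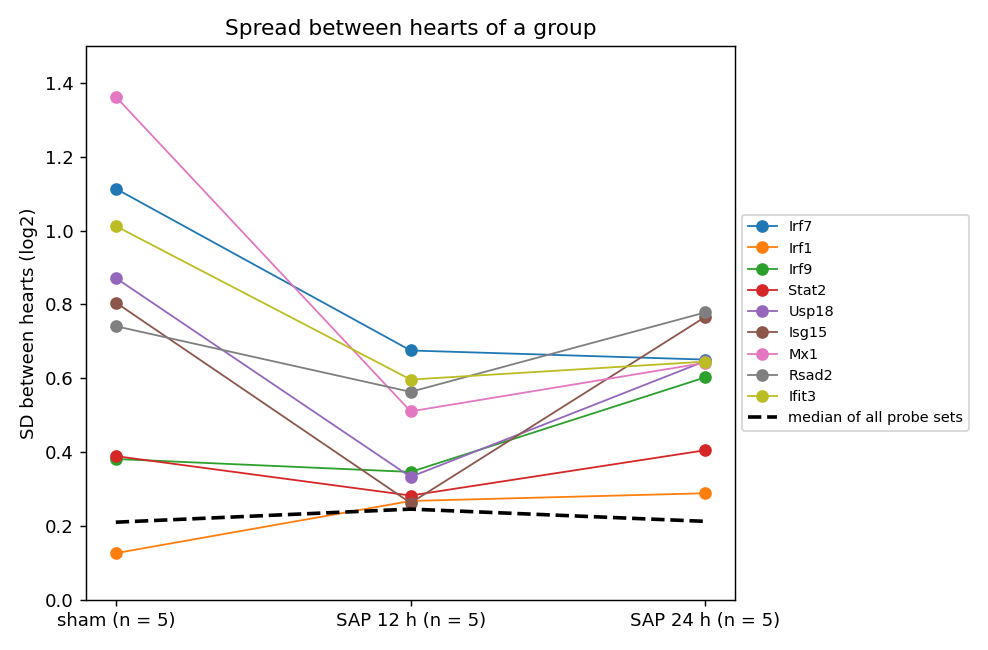
SD between the 5 hearts of each group, on the log2 scale, for the 9 genes (lines) and the median of all probe sets (dashed). The SD of Mx1 is 1.36 in sham hearts, 0.51 at 12 h and 0.64 at 24 h, and Irf1 runs the other way, from 0.13 to 0.27 and 0.29.

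The members deviated together. Across the 15 hearts, the deviation of each member from its group means correlated with the mean of the other 8 with a Pearson r between 0.52 for Irf1 and 0.92 for Usp18. Without sham replicate 2 and SAP 24 h replicate 4, the most extreme hearts, r lay between 0.39 for Isg15 and 0.79 for Usp18. The genes outside the members with the most similar deviations were Mx2 (r = 0.98), Rtp4 (0.92), Ifi44 (0.92), Ube2l6 (0.92), Ifgga2l2 (0.91), Ifi27l2b (0.91), Oas1b (0.90) and Oas2 (0.89). Mx2 and the Oas genes encode antiviral proteins and Ube2l6 encodes the enzyme that carries ISG15 to its targets. Without those extreme hearts these r ranged from 0.72 for Oas2 to 0.94 for Mx2. The points share arrays, RNA samples and normalization, and the correlations are descriptions.

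The wider list of type I interferon effector genes showed the same hearts as high. Of its 34 measured genes that are no members, sham replicate 2 was the highest sham heart for 26 and SAP 24 h replicate 4 the highest 24 h heart for 22. Among the same 34, the sham SD was above the 90th percentile of all probe sets for 23. At 12 h, 6 of these 34 genes were called lower and 1 higher, and their median difference was -0.49, whereas the median of all probe sets was 0.01. At 24 h, 0 of the 34 were called by limma, with a median of -0.15. Of the 40 with the members included, 5 were lower and 1 was higher at an unadjusted p under 0.05. Of all probe sets, 8.65% were lower by that rule.

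Counted with the members, 40 genes of the type I effector list were measured, of which 8 fell and 1 rose at 12 h. Of all probe sets, 2.57% were called lower and 2.35% higher. At an unadjusted p under 0.05, 20 of the 40 were lower and 1 was higher, beside 7.73% of all probe sets lower. The median of the 40 was -0.57. The 8 include the members Irf7 and Usp18, and not all of the 8 are named here. Ifit1, which binds viral RNA, fell by 1.65 (SE 0.39, adjusted p = 0.0166). Lgals9 (galectin-9) fell by 0.81 (SE 0.19, adjusted p = 0.0199), with no 12 h heart reaching a sham heart, and Eif2ak2, the kinase PKR, fell by 0.88 (SE 0.23, adjusted p = 0.0279). Oas1b and Lgals3bp fell with adjusted p-values of 0.0400 and 0.0491. Oas1k, of the same family as Oas1b, rose by 1.60 (SE 0.40, adjusted p = 0.0258), and the Oas1 copies are similar enough in sequence that probes may be shared.

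The number of falls in the type I effector list at 12 h depended on single arrays. It was 4 without sham replicate 2 and 3 without sham replicate 5, with medians of -0.34 and -0.46. It was also 5 without sham replicate 1 or SAP 12 h replicate 2 or 4 or SAP 24 h replicate 2, and 4 without SAP 12 h replicate 3. Without the 4 atrium-rich arrays 2 genes were called lower, and the median was -0.28. The calls of Ifit1, Eif2ak2, Lgals9, Oas1b and Lgals3bp were lost there (adjusted p = 0.0592, 0.0727, 0.0954, 0.147 and 0.379). The rise of Oas1k was not called without sham replicate 3, 4 or 5 or SAP 12 h replicate 2 or 5 (adjusted p from 0.0510 to 0.0701), Lgals9 was not called without sham replicate 5 (0.0616), and Eif2ak2 was not called without sham replicate 1, 2 or 5 or SAP 12 h replicate 2 or 3 (0.0595 to 0.0799). Oas1b was not called without sham replicate 1, 2 or 5, SAP 12 h replicate 1, 3 or 4 or SAP 24 h replicate 2 or 5 (0.0507 to 0.113). Lgals3bp was called only without sham replicate 1 or SAP 12 h replicate 1, and lost its call without any other 1 array (0.0528 to 0.136). At 24 h without sham replicate 2 the median of this list was -0.01.

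Among targets of interferon gamma and IRF1, 27 were measured, of which 2 fell and 1 rose at 12 h, with a median of -0.08. The ones that fell encode chemokines that draw T cells through the receptor CXCR3. Cxcl9 fell by 1.42 (SE 0.26, adjusted p = 0.00311), from between 6.70 and 7.98 in sham hearts to between 5.66 and 6.47. Cxcl11 fell by 1.45 (SE 0.28, adjusted p = 0.00423). Both calls held when any 1 array was left out and without the atrium-rich arrays. The third chemokine of that receptor, Cxcl10, differed by -0.11 ± 0.18 (adjusted p = 0.856). Cd274, which encodes PD-L1, rose by 0.95 (SE 0.24, adjusted p = 0.0265), a call that was lost without sham replicate 2, 3 or 4 or SAP 12 h replicate 1 or 2 (adjusted p from 0.0543 to 0.0784) and without the 4 atrium-rich arrays (adjusted p = 0.0550). At 24 h, 0 of the 27 were called by limma and 1 was lower and 1 higher at an unadjusted p under 0.05.

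**Figure D5:**
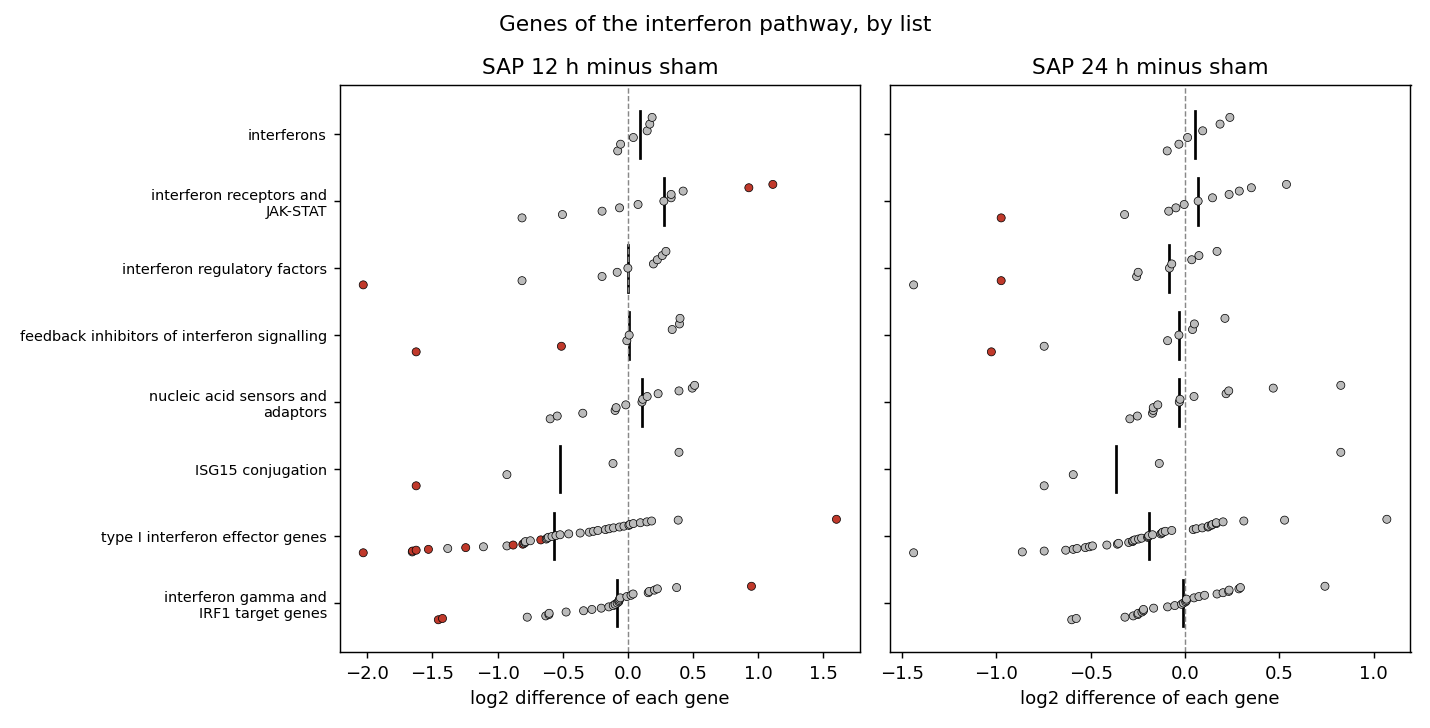
Log2 difference from sham of each measured gene of the 8 interferon lists at 12 h and 24 h, 1 point per gene, with the median of each list as a bar and called genes in red. At 12 h the type I effector genes have a median of -0.57 and the receptor and JAK-STAT genes one of 0.28.

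Of 11 measured genes for interferon receptors and JAK-STAT signalling, 2 rose at 12 h and 0 fell, with a median of 0.28. Jak2, the kinase of the interferon gamma receptor and of many cytokine receptors, rose by 1.11 (SE 0.11, adjusted p = 3.42e-05), from between 10.13 and 10.65 to between 11.41 and 11.53. Stat3, the main target of interleukin-6 signalling, rose by 0.93 (SE 0.22, adjusted p = 0.0195), a call that was lost without sham replicate 1 or SAP 12 h replicate 1 (adjusted p = 0.0568 and 0.0527). From 12 h to 24 h Jak2 fell by 0.76 (SE 0.11, adjusted p = 0.00306). Of the kinases bound to the type I receptor, Jak1 differed by -0.06 ± 0.15 and Tyk2 by -0.20 ± 0.11 at 12 h, and neither passed the test.

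Of the 9 measured interferon regulatory factors, Irf7 was called lower at 12 h and Irf9 at 24 h, and 0 were called higher at either time. These calls do not separate the times. Irf7 differed from sham by -2.03 and -1.44 at 12 h and 24 h, and Irf9 by -0.81 and -0.97. From 12 h to 24 h limma gave 0.59 ± 0.44 for Irf7 (adjusted p = 0.620) and -0.16 ± 0.25 for Irf9 (adjusted p = 0.838). Irf3, which starts interferon production before Irf7 amplifies it, differed by 0.00 ± 0.14 at 12 h and -0.26 ± 0.14 at 24 h. Among 7 measured feedback inhibitors, Usp18 and Ptpn11 fell at 12 h. Ptpn11, the phosphatase SHP2, fell by 0.51 (SE 0.13, adjusted p = 0.0290) at 12 h and by 1.03 (SE 0.13, adjusted p = 2.99e-04) at 24 h. The 12 h call for Ptpn11 was lost without sham replicate 1, 2, 3 or 5 or SAP 12 h replicate 1, 4 or 5 (adjusted p from 0.0545 to 0.0858) and without the 4 atrium-rich arrays (adjusted p = 0.274), and the 24 h call held without any 1 array. Socs1 and Socs3, which block JAK kinases, differed by -0.01 ± 0.18 and 0.40 ± 0.14 at 12 h and did not pass the test.

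Of 13 measured nucleic acid sensors and adaptors, 0 were called by limma at 12 h or at 24 h. At 12 h 1 was lower and 2 were higher at an unadjusted p under 0.05, and at 24 h 2 were higher. The sensor Dhx58, itself interferon-induced, had the smallest p at 12 h, with a difference of -0.60 ± 0.19 (adjusted p = 0.0777). Of 4 measured genes of ISG15 conjugation, Usp18 alone was called at 12 h. The 6 measured interferon genes, Ifnb1, Ifna2, Ifna4, Ifna5, Ifng and Ifnk, had sham means between 4.28 and 5.13, near the acinar guide, and 0 were called by limma at either time and 0 at an unadjusted p under 0.05.

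At 12 h, 4 macrophage and 4 neutrophil markers rose in the same hearts in which Irf7 and Usp18 had fallen, and the other markers of these lists were not called. Of 14 macrophage and monocyte markers, 4 rose and 0 fell at 12 h, and their mean level per array was between 8.50 and 8.64 in sham hearts and between 8.77 and 9.71 at 12 h. Of 11 neutrophil markers, 4 rose and 0 fell at 12 h, with a mean level between 4.50 and 4.74 in sham hearts and between 5.12 and 5.92 at 12 h. The sham means lay below the acinar guide. The differences of the 11 ran from 0.01 to 3.20 with a median of 0.31, so the largest rises weigh heavily in the mean. Of 14 T and NK cell markers and of 8 dendritic cell markers 0 were called by limma at 12 h, with 1 lower and 1 higher, and 1 lower, at an unadjusted p under 0.05. Of 5 B cell markers 1 fell at 12 h, and their differences ran from -2.66 to 0.11, with a median of -0.16. Their mean level was between 4.73 and 5.24 in sham hearts and between 4.39 and 4.67 at 12 h, near the acinar guide. The largest single fall weighs heavily in that mean. In sham replicate 2, the heart with the highest member levels, the macrophage mean was 8.61 and the T and NK cell mean 5.47. Both lay within the range of the other sham hearts. The dendritic mean of that heart, 7.50, was the highest of the group. As drawn up, the dendritic list shares Bst2 and Irf8 with the interferon lists, so its mean is no separate measure of dendritic cells. Sham replicate 2 also had the lowest endothelial mean of the sham hearts, 10.36, and the highest atrial mean, 15.08. SAP 24 h replicate 4, with the highest member levels of its group, had the lowest dendritic (7.26), macrophage (8.45) and neutrophil (4.82) means among the 24 h hearts. Its endothelial mean, 10.77, ranked 2 in that group, and its atrial mean, 7.66, was the highest there. Of 9 endothelial markers, 2 rose at 12 h and 0 fell, with a mean level between 10.36 and 10.70 in sham hearts and between 10.50 and 11.22 at 12 h. Of 9 fibroblast markers, 1 was called higher and 0 lower at 12 h, but 5 lay below 0, with a median difference of -0.73. At an unadjusted p under 0.05, 4 were lower and 2 higher at 12 h. At 24 h 1 fell, with 5 lower at an unadjusted p under 0.05. The fibroblast mean lay between 10.67 and 12.21 in sham hearts and between 10.22 and 10.57 at 24 h, without overlap. Of 6 atrial markers 1 fell at 24 h, and their mean lay between 8.20 and 15.08 in sham hearts, between 6.82 and 17.01 at 12 h and between 6.79 and 7.66 at 24 h. The part of these cell types in the members' levels was not tested.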

How the data were processed

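Total heart RNA was labelled with biotin and hybridized to a rat transcript-cluster array, per the labels. The authors deposited 1 log2 value per probe set and array, to 2 decimals. Per the submitters' processing notes they used Affymetrix Expression Console (version not given). The log2 scale rests on the name RMA in the deposited table, which stands for robust multi-array averaging and includes quantile normalization. A second deposited table differed by at most 0. Array medians lay between 5.9 and 5.98, and no detection calls were used. Depth has no counterpart on arrays, so their number limits the precision.

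The labels disagree: the series title and the RNA extraction note speak of ischemia/reperfusion, that note names mice, and the design text names a mouse array. The sample titles, source names and treatment text were followed. No batch is named.

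The means of the 3 groups were fitted together with limma 3.58.1 in R 4.3.3 (lmFit, eBayes, no filter), with two-sided p-values adjusted over all probe sets. Spread was tested by limma on absolute deviations from the group mean. The fits were tested on simulated data. Members, gene lists, tests and alternatives were chosen with earlier results of these data known. Named genes are the members, up to 6 called genes of each list and comparison (otherwise the 3 with the smallest p), and the 8 most alike in deviations. Likeness within the 5 sham arrays is not reported, since the arrays are too few. Symbols came from GEO's platform annotation (15049 probe sets with 1 symbol, 8139 unnamed here). Promoters came from RefSeq. Alternatives were median centring, repeated quantile normalization, filters on the lowest 25% or 50% by mean, trend and robust eBayes, array weights, only the groups compared, a replicate block, the mean of 6 atrial markers as covariate, leaving out the 4 atrium-rich arrays, and leaving out each array.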

Additional observations from a re-analysis of the deposited data

Results flagged for a closer look

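In 123 groups of 5 hearts (the members and named genes in each group), 8 had a heart far from the other 4, where chance alone gives about 1 in 20. That rate does not apply to genes chosen for their pattern across these hearts. In SAP 24 h replicate 4, Isg15 stood at 5.95 against 4.10 to 4.50 in the other 24 h hearts. In the same heart Ube2l6 stood at 6.44 against 4.64 to 5.05, and Oas1b at 7.33 against 5.89 to 6.26. Ube2l6 and Oas1b are among the 8 genes named because they deviate with the members, so their high values there follow from that choice and add nothing to Isg15. SAP 12 h replicate 5 stood high for Ifng, at 4.99 against 4.24 to 4.37, and for Cxcl9, at 6.47 against 5.66 to 5.89. The Ifng values lie near the acinar guide to background. Jak2 in SAP 12 h replicate 2 stood at 11.53 against 11.41 to 11.44, a gap that is large only beside the narrow range of the others. In sham hearts, Ifna5 was low in replicate 3, at 4.54 against 5.04 to 5.16, and Stat3 was low in replicate 1, at 12.4 against 12.73 to 12.86.

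Of the genes named, 3 were called by limma between 12 h and 24 h. Genes called in this comparison were named for that reason, so the count follows from the choice. Of all probe sets, 0.69% were called in this comparison. Jak2 was lower at 24 h than at 12 h by -0.76 (adjusted p = 0.00306), and the call held without any 1 array. Lgals9 was higher at 24 h by 0.90 (adjusted p = 0.0357), a call that was lost without SAP 12 h replicate 3, 4 or 5 or any 1 of the 24 h replicates (adjusted p from 0.0521 to 0.0967) and without the 4 atrium-rich arrays (0.0583). Ifitm3, which blocks the entry of viruses into cells, was lower at 24 h by -0.91 (adjusted p = 0.0297), a call that was lost without SAP 12 h replicate 3 or 4 or SAP 24 h replicate 1, 2 or 5 (adjusted p from 0.0617 to 0.0950) and without the 4 atrium-rich arrays (0.175). No member was among these genes.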

How the results depend on the processing

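The falls of Irf7 and Usp18 at 12 h were called under each of the 25 alternatives, with differences between -2.42 and -1.67 for Irf7 and between -1.90 and -1.29 for Usp18 and adjusted p-values up to 0.0376 and 0.0301. The count of members called at 12 h was between 2 and 3 when 1 array was left out. The fall of Irf9 at 24 h was called under 14 of the 25, and the count of members called at 24 h was 1 in the reported fit, 0 with quantile normalization repeated, 0 with the replicate block, 0 with the atrial covariate, 0 without the 4 atrium-rich arrays, 2 with array weights, and between 0 and 2 when 1 array was left out. Irf9 at 12 h was called without the lowest 50% of probe sets and with only the 2 groups compared (adjusted p = 0.0489 and 0.0397). Of the 669 values of members under alternatives, 653 kept their side of the threshold, 5 became calls, 11 lost a call and 0 reversed a call. Between 12 h and 24 h 0 members were called under the alternatives run, and the test of spread called 0; it was not run with weights, block, covariate or without the 4 atrium-rich arrays. The probe sets called at 12 h, 1140, became 598 without the 4 atrium-rich arrays. Those called at 24 h, 782, became 1263 with array weights, 1230 with only the 2 groups compared, 503 with the atrial covariate, 500 without the 4 atrium-rich arrays and between 420 and 1001 when 1 array was left out. Those called between 24 h and 12 h, 160, split into 132 lower and 28 higher (105 and 53 with quantile normalization repeated) and became 75, 83 and 85 with only the 2 groups, the covariate and without the 4 arrays, and between 73 and 398 when 1 array was left out (398 without SAP 12 h replicate 2). Replicate numbers showed no general pairing in the deviations over all probe sets. Of 15 same-number pairs 2 correlated above 0.1, and 2 samples correlated best with their own number. The highest correlation, 0.26, joined sham replicate 3 and SAP 12 h replicate 3, which are both atrium-rich. This check cannot show whether hearts of the same number shared a surgery or processing day. The cause of the changes in calls was not tested. Fits without arrays have fewer arrays and so less power.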
